A study of Homo sapiens and Mus musculus with 54 samples.

Results

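Of 93202 H3K27ac regions that HepG2 cells showed at the same position in both deposited H3K27ac lists, 49561 (53.2%) touched neither an AhR peak nor a C/EBPα peak. These factor-free regions were defined by position alone. A region entered when its chromosome, start and end were identical in the list of the untreated experiment and in the list of the AhR inhibitor experiment, and when it shared no base with any row of the HepG2 AhR list (56739 peaks) or C/EBPα list (62761 peaks). The other 43641 shared regions met a factor peak and are called factor-bearing. They comprised 15104 regions with AhR only, 6431 with C/EBPα only and 22106 with both. The untreated list held 106666 regions and the inhibitor list 97145.

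The series holds 54 ChIP-seq libraries, 30 of them from HepG2, an established hepatocellular carcinoma line, and it compares vitamin B2 (riboflavin) deficiency with a control supply. All HepG2 libraries were taken on day 12. H3K27ac was profiled in 5 B2-deficient and 5 control libraries, and in a further experiment in 2 B2-deficient libraries with an AhR inhibitor (AhRinh), 2 B2-deficient libraries with DMSO and 2 control libraries with DMSO. AhR and C/EBPα ChIP each had 2 B2-deficient and 2 control libraries. No genetic change is named for these cells, and the inhibitor is not identified in the labels. The H3K27ac chromatin was fixed with formaldehyde only, and the AhR and C/EBPα chromatin with disuccinimidyl glutarate followed by formaldehyde, per the labels' protocols. Each list gave positions without a value per library, so the depth is unknown, no difference between B2-deficient and control cells was measurable, and the sources used here do not say which conditions went into each list.

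Acetylation of histone H3 at lysine 27 marks active enhancers and active promoters. AhR is a ligand-activated factor that leaves the cytoplasm on binding an agonist, pairs with ARNT and binds a short core sequence near genes of xenobiotic metabolism. C/EBPα is a bZIP factor that helps to set the hepatocyte programme, and it acts at many liver enhancers with FOXA and HNF4 factors. An H3K27ac region without a peak of either is a place where the active mark was listed and these ChIPs listed no summit region. A region without a listed peak can still hold binding under the threshold of the caller.

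Few members lay on gene starts, and the start sequences they met are shown because they are the only bases of the regions that could be read here. Of 22156 start windows of protein-coding genes (250 bases before to 50 after each start, RefSeq, GRCh38.p14), 161 were met by a factor-free region alone, 67 by a factor-bearing region, 6 of them by both kinds, and the rest by no shared region. Windows met by factor-free regions were rich in G and C. Their median GC content was 68.3%, against 57.3% in windows met by factor-bearing regions and 62.3% in all windows, and their median number of CG pairs was 25, against 10 and 21. KMT2D, which encodes a histone H3 lysine 4 methyltransferase of enhancers, had the only window among the list genes that lay wholly inside a factor-free region. The windows of ACACB (acetyl-CoA carboxylase 2), ACTN1 (the actin crosslinker α-actinin 1) and SMAD3 (a TGF-β signal transducer) lay partly inside such a region. They belong to starts inside the gene bodies, downstream of the 5′ end of each gene. These windows were added after their values were seen, as contrasts in base composition. The 4 windows are printed 5′ to 3′ on the strand of the gene, and capitals mark the bases inside the factor-free region.
KMT2D, chr12:49060745-49061044, minus strand: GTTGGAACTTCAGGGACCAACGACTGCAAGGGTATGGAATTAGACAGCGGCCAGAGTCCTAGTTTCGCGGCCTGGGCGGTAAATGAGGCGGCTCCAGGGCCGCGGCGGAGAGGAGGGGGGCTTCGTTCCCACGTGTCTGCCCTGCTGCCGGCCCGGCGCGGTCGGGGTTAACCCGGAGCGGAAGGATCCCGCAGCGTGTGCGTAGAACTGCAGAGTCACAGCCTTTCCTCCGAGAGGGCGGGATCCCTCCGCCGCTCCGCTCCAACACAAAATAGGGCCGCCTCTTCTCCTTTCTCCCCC
ACACB, chr12:109154429-109154728, plus strand: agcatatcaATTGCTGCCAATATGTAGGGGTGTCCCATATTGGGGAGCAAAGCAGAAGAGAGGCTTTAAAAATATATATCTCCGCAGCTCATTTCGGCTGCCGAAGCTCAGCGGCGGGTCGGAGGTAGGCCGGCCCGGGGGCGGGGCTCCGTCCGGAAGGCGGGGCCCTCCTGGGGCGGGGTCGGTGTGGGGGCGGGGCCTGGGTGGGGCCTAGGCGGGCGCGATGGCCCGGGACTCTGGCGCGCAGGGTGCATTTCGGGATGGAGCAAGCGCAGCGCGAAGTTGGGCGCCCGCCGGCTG
ACTN1, chr14:68937902-68938201, minus strand: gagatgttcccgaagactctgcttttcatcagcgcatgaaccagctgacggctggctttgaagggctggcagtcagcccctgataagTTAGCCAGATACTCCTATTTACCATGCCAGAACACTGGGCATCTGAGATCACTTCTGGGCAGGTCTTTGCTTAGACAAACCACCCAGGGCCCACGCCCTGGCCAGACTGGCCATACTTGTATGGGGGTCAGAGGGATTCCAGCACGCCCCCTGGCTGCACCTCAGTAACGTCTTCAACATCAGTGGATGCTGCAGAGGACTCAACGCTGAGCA
SMAD3, chr15:67098429-67098728, plus strand: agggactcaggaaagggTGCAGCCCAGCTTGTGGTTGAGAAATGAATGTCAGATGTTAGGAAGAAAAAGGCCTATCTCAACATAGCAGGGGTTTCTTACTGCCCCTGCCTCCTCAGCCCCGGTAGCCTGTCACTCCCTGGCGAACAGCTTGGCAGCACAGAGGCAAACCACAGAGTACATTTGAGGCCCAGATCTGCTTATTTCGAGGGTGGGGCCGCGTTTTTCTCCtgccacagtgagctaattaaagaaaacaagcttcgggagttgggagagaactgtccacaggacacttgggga

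The KMT2D window held 27 CG pairs and a GC content of 65.0%. It lay inside chr12:49060723-49061252, a region of 530 bp whose nearest AhR peak was 103064 bp and whose nearest C/EBPα peak was 44540 bp away. The ACACB window was similar in composition, with 28 CG pairs and a GC content of 67.0%, yet its region chr12:109154438-109154767 had an AhR peak 87 bp and a C/EBPα peak 80 bp away. The ACTN1 and SMAD3 windows were poorer in CG pairs, with 7 and 6. So was another ACACB window met by a factor-free region, chr12:109116337-109116636, with 4 CG pairs and a GC content of 46.0%. A window of HDAC4 met by such a region had 5 and 49.3%. The SMAD3 region chr15:67098446-67098656 was 211 bp wide, lay wholly within the window and had a C/EBPα peak 202 bp and an AhR peak 237 bp away.

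Short sequence motifs differed in share between the window sets, which are given as a description. The letters were searched on both strands, none of the strings contains another, and N stands for any base. The AhR core GCGTG was present in 47.2% of windows met by factor-free regions, 32.8% of those met by factor-bearing regions and 43.0% of all windows. The factor-bearing set held only 67 windows, some of them met by regions without an AhR peak. In the 1554 windows met by an AhR peak, with or without a shared region, the AhR core was in 50.6%. KMT2D and ACTN1 held it, and ACACB and SMAD3 did not. The C/EBP string TTNNGCAA was in 4.35%, 22.4% and 8.69% of the first 3 sets, and was in none of the 4 printed windows. In windows met by an AhR peak it was in 11.9%. Factor peaks sorted the factor-free and factor-bearing sets, so the shares of the AhR and C/EBP strings are tied to the rule. The AP-1 string TGANTCA was in 5.59%, 17.9% and 6.16%. The FOXA string TGTTTNC was in 15.5%, 34.3% and 15.3%. Of the printed windows SMAD3 held it, in bases outside the factor-free region. The remaining strings are common at broadly active starts. The GC box GGGCGG, present in KMT2D and ACACB, was in 61.5%, 35.8% and 56.3%, the ETS string CCGGAA, present in ACACB, was in 17.4%, 8.96% and 21.2%, and the CCAAT box was in 27.3%, 26.9% and 34.6%. A matching string is not evidence of binding, and the part of base composition in these shares was not tested.

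The scarcity of gene starts was a property of both H3K27ac lists and bounds what can be read from them. On the 22 chromosomes with start windows in the table used here (1 to 22 and X without chromosome 8, windows for 15813 genes), 750 of 47747 factor-free regions (1.57%) and 350 of 41740 factor-bearing regions (0.839%) had their centre within 3 kb of a protein-coding start. The same share was 9.95% for AhR peaks and 12.2% for C/EBPα peaks. The counts changed in a step at 3 kb. Factor-free regions numbered 189 at 2 to 3 kb and 1612 at 3 to 4 kb, and factor-bearing regions 141 and 1053. AhR peaks showed no step, with 1256 and 1195. The regions listed in 1 experiment alone also had few start-proximal centres, with 0.697% in the untreated list alone and 1.0% in the inhibitor list alone. The sources used here do not say whether start-proximal regions were removed on purpose, so nothing can be said here about H3K27ac at the promoters of genes without a listed region.

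**Figure D1:**
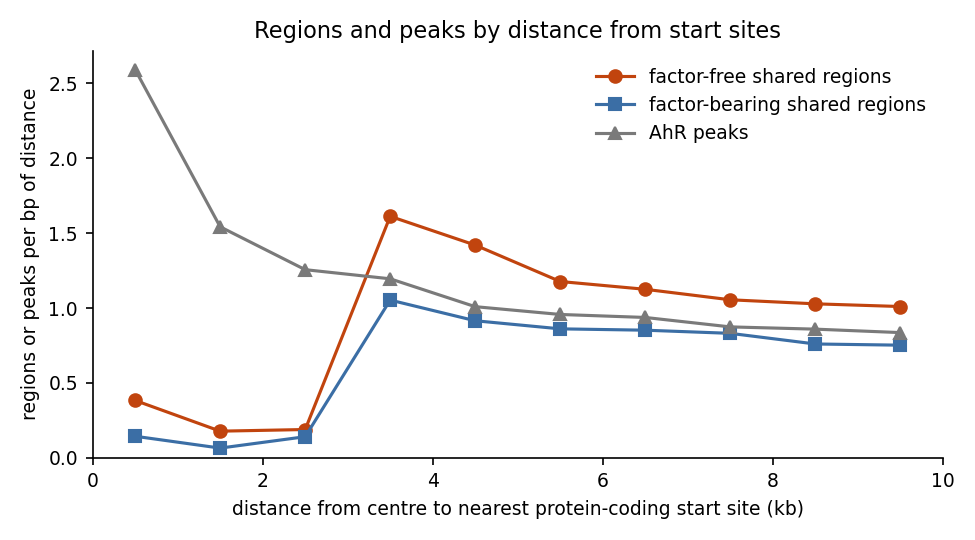
Number of regions or peaks per bp of distance (y axis) against the distance from their centre to the nearest protein-coding start site (x axis, kb, in steps of 1 kb). Factor-free regions stand at 0.189 per bp at 2 to 3 kb and at 1.61 per bp at 3 to 4 kb, factor-bearing regions step in the same place, and AhR peaks decline without a step.

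In size, factor-free regions were as large as the rest at the median and more spread out. Their median width was 288 bp (5th to 95th percentile 214 to 562 bp, extremes 201 and 2214 bp), and that of factor-bearing regions was also 288 bp (224 to 495 bp, extremes 201 and 3071 bp). Regions over 500 bp made up 8.06% of the factor-free and 4.79% of the factor-bearing regions. Across 5 classes of width, the factor-free share was highest at both ends, with 57.2% at 201 to 245 bp, 50.0% at 246 to 274 bp, 51.0% at 275 to 303 bp, 47.5% at 304 to 359 bp and 60.3% at 360 bp or more. A wide region has more bases on which to meet a peak, so width is tied to the way the regions were chosen and was not tested. The factor-free regions covered 15.995 Mb and the factor-bearing ones 13.5 Mb.

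The widest members lay at APOB, at FASN and on chromosome 8. The widest, chr2:21036030-21038243, was 2214 bp long and lay inside APOB, the gene of the structural apolipoprotein of very low density lipoprotein. Its nearest AhR peak was 409 bp and its nearest C/EBPα peak 431 bp away. The next, chr17:82084525-82086665, was 2141 bp long and lay inside FASN, the fatty acid synthase gene, 7678 bp from an AhR peak. After it came a member of 2082 bp on chromosome 8, made of 8 merged entries, the most of any member. It lay 23316 bp from its nearest factor peak. A member of 1398 bp, chr14:94380611-94382008, lay inside SERPINA1, the α1-antitrypsin gene, and was made of 7 merged entries.

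Distance to a factor peak follows from the rule and is given only to show how far apart the marks lay. The median member was 2894 bp from the nearest AhR or C/EBPα peak, with quartiles of 563 and 9625 bp. Within 500 bp of a factor peak lay 11605 members (23.4%), within 10 kb 75.8%, and beyond 50 kb 1788 (3.61%). AhR was the nearer factor for 48.6% and C/EBPα for 50.9%. The edge of the rule divides regions that look alike. The 234 members 1 to 10 bp outside a factor peak had a median width of 265 bp and 68.8% of them were merged, and the 203 factor-bearing regions that shared at most 10 bases had a median width of 278 bp with 73.4% merged. Of these, 18 members abutted a peak and 14 factor-bearing regions shared exactly 1 base.

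Each region name ends in a whole number, called the merge number, which was taken to count the peaks joined into that entry. Factor-free regions were merged less often than factor-bearing ones. A merge number of 2 or more was found in 71.2% of factor-free and 90.5% of factor-bearing regions on chromosomes 1 to 22 and X. With regions compared within 5 classes of width on each chromosome, the mean difference was -18.5 ± 1.55 percentage points (SD over 23 chromosomes), lower on 23 of 23 chromosomes (paired permutation test over chromosomes, two-sided, adjusted p = 2.5e-05). The merged share was 94.3% in regions with both factors, 89.4% in those with AhR only and 79.8% in those with C/EBPα only, which are values without a test. Seen from the other side, 77.4% of the 18437 single regions were factor-free, against 47.0% of the 72483 regions of merge number 2. The sources used here do not say which peak sets were merged, and what a low merge number reflects was not tested.

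Relative to genes, factor-free regions lay more often at gene ends and less often inside genes. Within 1 kb of an end of a protein-coding gene lay 5.505% of factor-free and 2.89% of factor-bearing regions. The mean difference within width classes was 2.32 ± 1.25 percentage points (SD over 23 chromosomes) and was positive on 23 of 23 chromosomes (adjusted p = 2.5e-05, paired permutation test). Among genes with a start window, which gives their strand, and on the 22 chromosomes that have such windows, the share near either end was 4.57% of factor-free and 2.4% of factor-bearing regions. The 3′ end was near for 3.75% of factor-free and 2.1% of factor-bearing regions and the 5′ end for 0.894% and 0.326%, in lists that hold few regions within 3 kb of starts. The centre lay inside a gene body for 51.1% of factor-free and 54.7% of factor-bearing regions, a mean difference of -3.79 ± 2.94 percentage points (SD), lower on 20 of 23 chromosomes (adjusted p = 2.5e-05, paired permutation test). The exceptions included chromosome 19, where factor-free regions were inside genes more often by 2.19 percentage points. A start window was met by 172 of 47747 factor-free regions (0.36%) and 67 of 41740 factor-bearing regions (0.161%). This mean difference of 0.227 ± 0.191 percentage points (SD over 22 chromosomes) was positive on 19 and negative on 2 chromosomes (p and adjusted p = 4e-05, paired permutation test), among the few start-proximal regions that the lists hold.

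Spacing among H3K27ac regions depended on how nearness to a factor was counted. No other region of the untreated list lay within 5 kb of 24.3% of factor-free and 29.0% of factor-bearing regions, a mean difference of -3.70 ± 2.01 percentage points (SD), lower on 22 of 23 chromosomes (adjusted p = 2.5e-05, paired permutation test). The median gap to the next region was 655 bp for factor-free and 1264 bp for factor-bearing regions. When a factor peak within 500 bp also counted, which leaves 37956 regions free, the difference turned to 7.81 ± 2.3 percentage points (SD) and was positive on 23 of 23 chromosomes. The direction thus depended on the distance at which a factor peak counts. The other 4 differences kept their sign under that change.

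**Figure D2:**
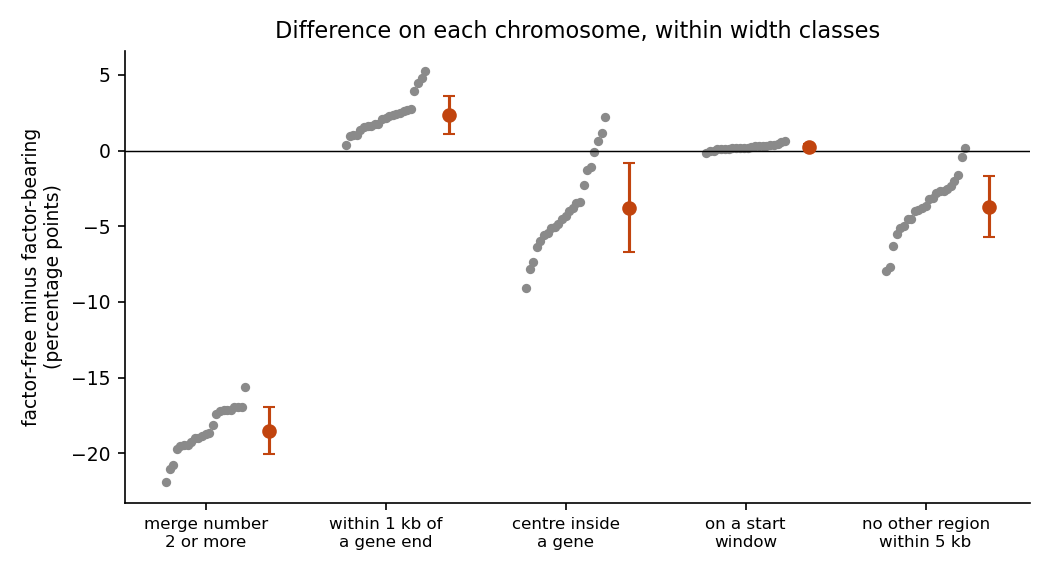
Factor-free minus factor-bearing share (y axis, percentage points, within width classes) for 5 properties (x axis). Each grey point is a chromosome, sorted by value, and the orange point with its bar is the mean and SD over chromosomes. All 23 points of the merged share lie below 0 and all 23 of the gene-end share above it, while the gene-body difference is positive on 3 chromosomes, the spacing difference on 1, and the start-window difference is negative on 2.

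The factor-free share varied by chromosome. It was 65.6% on chromosome 20 and 42.2% on the X chromosome, the extremes of the 23. Chromosome 20 carried 50.8 factor-free regions per Mb and the X 3.6. Across the 23 chromosomes the share followed the number of shared regions per Mb (Pearson r = 0.908, Spearman rho = 0.863), and did so without chromosomes 19 and 20 (r = 0.886, rho = 0.823). This is a description over chromosomes measured in the same libraries, and factor-free regions are part of both measures. The share also went with the density of C/EBPα peaks (r = 0.831, rho = 0.801), of AhR peaks (r = 0.774, rho = 0.768) and of genes (r = 0.644, rho = 0.748). The AhR and C/EBPα lists define the share, so the values for their peaks are tied to the rule.

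HepG2 carries extra copies of chromosomes 2, 14, 16, 17 and 20 by its published karyotypes, and these 5 were set against the rest. Of their shared regions 59.5% were factor-free (55.4% to 65.6%), against 50.2% on the other 18 (42.2% to 62.8%), so the ranges overlap. They carried 30.1 factor-free and 20.4 factor-bearing regions per Mb, against 13.1 and 12.96 on the other chromosomes. With 19.3% of the measured span, they held 35.5% of all factor-free regions on these chromosomes. Copy number was not measured here and its part in these densities was not tested.

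**Figure D3:**
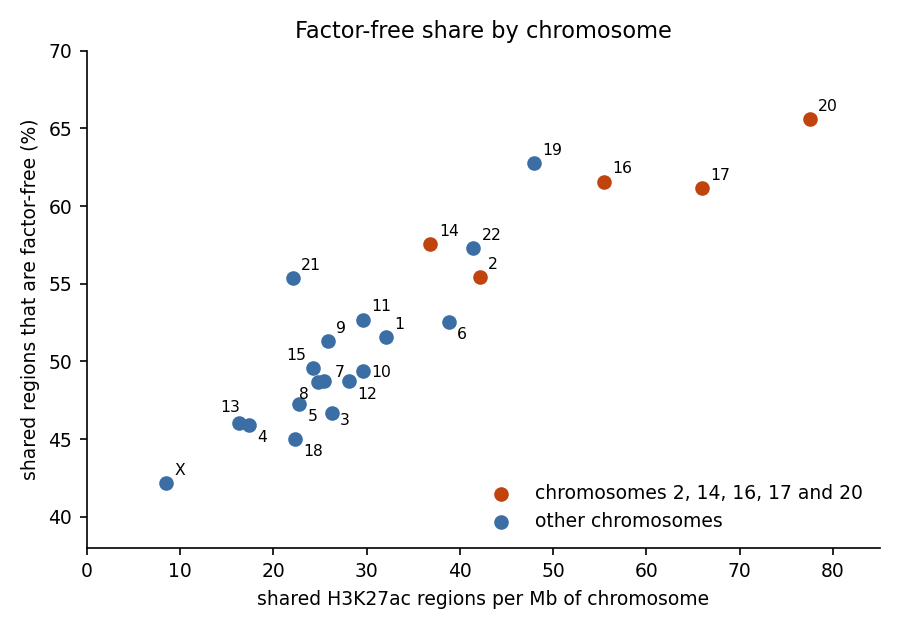
Share of shared regions that are factor-free (y axis, percent) against shared regions per Mb (x axis) for 23 chromosomes, each labelled. Chromosomes 2, 14, 16, 17 and 20 are in orange. Chromosome 20 is at the upper right with 65.6% and the X chromosome at the lower left with 42.2%.

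Factor-free regions lay among each other and among factor-bearing regions. Shared regions with gaps of at most 10 kb were joined into 35347 stretches on chromosomes 1 to 22 and X. Of these, 11909 held factor-free regions alone, 11740 held both kinds and 11698 held factor-bearing regions alone. Mixed stretches held 66.2% of the factor-free regions. Stretches wholly without a factor were short, 9040 of them being a single region, and the longest had 19 regions, against 8 in the longest wholly factor-bearing one. The factor-free share was larger in larger stretches, at 49.6% for lone regions, 50.6% for stretches of 2 to 3, 52.7% for 4 to 9, 58.3% for 10 to 19 and 63.3% for 20 or more. The means over chromosomes were 49.9 ± 7.08%, 50.7 ± 5.83%, 52.1 ± 6.24%, 56.7 ± 5.17% and 61.0 ± 7.89% (SD, 23 chromosomes). The same chromosomes supply every class, and these SDs describe the spread of their levels. Differences between classes within a chromosome were not computed, and the trend was not tested. The nearest shared neighbour of a factor-free region was itself factor-free in 56.2% of cases, against 49.3% for a factor-bearing region.

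**Figure D4:**
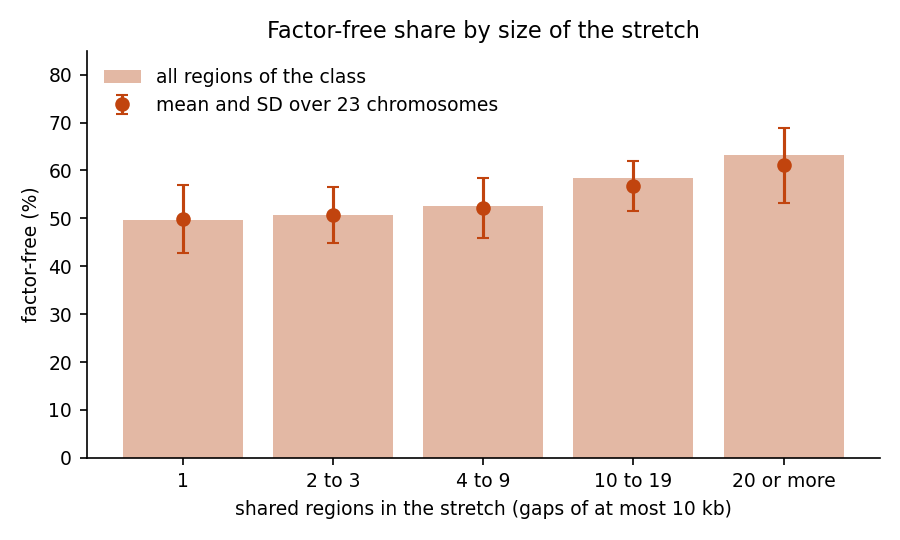
Factor-free share (y axis, percent) by the number of shared regions in a stretch (x axis). Bars give the share over all regions of the class, and points with bars give the mean and SD over 23 chromosomes. The share is 49.6% for lone regions and 63.3% in stretches of 20 or more.

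Uninterrupted runs of factor-free regions marked out a few genes. There were 105 runs of 10 or more, with 1344 regions in all. The longest had 27 regions over 25.2 kb at APOB (chr2:21013033-21038243), with a median width of 389 bp, 18 of them merged. At NDRG1, a stress- and hypoxia-induced gene, a run of 26 regions lay over 25.2 kb. TACC3, which encodes a mitotic spindle protein, had 23 (chr4:1747906-1766104). GATA5, a zinc finger factor of gut and heart endoderm, had 22 (chr20:62472371-62523699), with an AhR peak 237 bp away and no C/EBPα peak within 19309 bp. FN1, the fibronectin gene, with its neighbour ATIC had 20, and TNS1, the tensin 1 gene of focal adhesions, 19. The TNS1 run was a stretch of its own with no factor-bearing region, 10961 bp or more from any factor peak. Runs were picked for being factor-free, so their length is a description.

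At the level of genes, each region was assigned to the nearest protein-coding gene body within 50 kb, which placed 86.2% of factor-free and 84.0% of factor-bearing regions. Of 19974 protein-coding genes, 10809 (54.1%) had at least 1 factor-free region. Of the 12826 genes with any shared region, 3075 had factor-free regions alone, the background share of 24.0%, 2017 had factor-bearing regions alone and 7734 had both. Most genes of a single kind had few regions, with a median of 1 for either. With 5 or more regions, 180 genes had factor-free regions alone and 63 had factor-bearing regions alone. Factor-free regions were the larger kind (53.8% of assigned regions), and the number of all genes with 5 or more is not given here. These counts are therefore a description.

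The 10 genes with the most factor-free regions had from 44 to 135 of them. GSE1, which encodes a coiled-coil partner of corepressor complexes, had 135 factor-free of 184 shared regions, 117 of them inside its body (chr16:85169512-85676200). NOL4L had 67 of 82, NDRG1 62 of 72, the sorting nexin gene SNX29 57 of 108 and TNS1 51 of 55. PRDM16, a zinc finger regulator of fat cell fate, had 48 of 73, the potassium channel gene KCNQ1 47 of 72, and the adhesion scaffold gene NEDD9 45 of 79. APOB had 44 of 56 and LRMDA 44 of 81. The share ran from 52.8% at SNX29, close to that of all assigned regions (53.8%), to 92.7% at TNS1.

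Among genes with no factor-bearing region, PRKCZ, an atypical protein kinase C, had the most, with 20 factor-free regions, 14 of them inside the gene. RGS14, a regulator of G protein signalling, had 13 and CBX8, a Polycomb reader, had 12. APC2, a relative of the APC tumour suppressor, and LRRC56 had 11 each. COPZ2 (a coatomer subunit), IGDCC4, MNT (a MAX-binding repressor), the imprinted gene PEG3 and the semaphorin receptor gene PLXNB2 had 10 each. Being wholly factor-free is what selected them.

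APOB shows the alternation at close range. From chr2:21013033 to chr2:21038243 every listed region was factor-free. The run was flanked at its left by chr2:21012493-21013004, a region of 512 bp with a C/EBPα peak, and at its right by chr2:21038573-21038855, a region of 283 bp with both factors. Of the 12 factor-bearing regions assigned to APOB, 10 met AhR, 7 met C/EBPα and 5 met both, while 38 of the 44 factor-free regions and 3 of these 12 lay inside the gene. Factor-free regions there had a median width of 382 bp and factor-bearing ones 282 bp.

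FASN was similar in layout. Its 16 factor-free regions ran from chr17:82075285 to chr17:82094492, 12 of them inside the gene, with a median width of 449 bp. Its 2 factor-bearing regions, chr17:82076310-82076567 and chr17:82076628-82076892, met AhR only and lay outside the gene body. KMT2D had 7 factor-free regions and no other, 6 of them packed between chr12:49057953 and chr12:49061252. EGR1, the immediate early zinc finger gene, was chosen after its values were seen. It had 7 factor-free regions between chr5:138457151 and chr5:138476635, each at least 11591 bp from an AhR peak and 4407 bp from a C/EBPα peak.

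**Figure D5:**
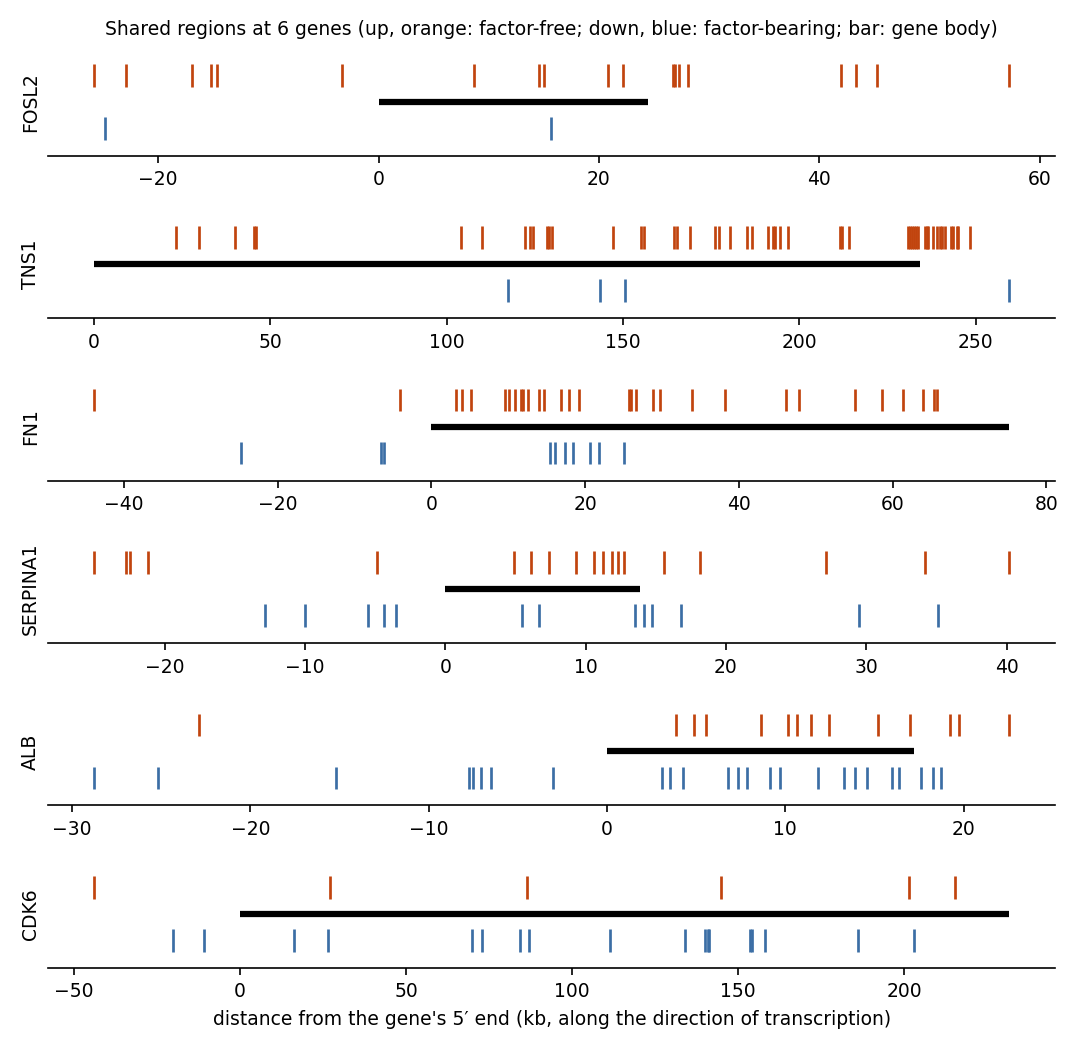
Shared regions assigned to 6 genes, drawn at their centres along the distance from the 5′ end of the gene (x axis, kb). Orange ticks above are factor-free, blue ticks below are factor-bearing, and the black bar is the gene body. FOSL2 (19 and 2), TNS1 (51 and 4), FN1 (31 and 10) and SERPINA1 (19 and 13) have more factor-free than factor-bearing regions, and ALB (14 and 25) and CDK6 (6 and 18) have fewer.

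The map of 6 genes shows where the kinds fell. At FN1, 29 of 31 factor-free regions were inside the gene, and the 7 factor-bearing ones inside it all lay within 25.1 kb of the 5′ end, while factor-free regions reached 65.9 kb. At TNS1 the first region of either kind began 23 kb from the 5′ end, and 13 factor-free regions lay past the 3′ end. At SERPINA1, 9 factor-free and 3 factor-bearing regions were inside the gene, and upstream of it were 5 of each. At ALB, the albumin gene, 1 factor-free and 8 factor-bearing regions lay upstream, and 10 factor-free and 14 factor-bearing regions lay inside. At CDK6, a cyclin-dependent kinase gene, the body held 5 factor-free and 16 factor-bearing regions. At FOSL2, an AP-1 subunit gene, 6 factor-free regions and 1 factor-bearing region lay upstream, and past the 3′ end were 8 factor-free and no factor-bearing ones.

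The AhR and C/EBP genes differed widely. CYP1A1, a detoxification gene that AhR agonists induce, had no factor-free region. Its 2 shared regions, chr15:74716590-74716958 and chr15:74730940-74731171, met both factors. CYP1B1 had 1 shared region, chr2:38115278-38115565, and it was factor-free, 18748 bp from an AhR peak and 5218 bp from a C/EBPα peak. That region lay more than 10 kb outside the gene body (chr2:38067509-38076151) and was assigned only by the 50 kb window. The CYP1A1 regions also lay outside their gene body (chr15:74719542-74725528), within 10 kb of it. Of the shared regions of AHR itself 2 of 4 were factor-free, of AHRR, the AhR repressor, 2 of 6, and of TIPARP, an AhR-induced ADP-ribosyltransferase, 2 of 7. CEBPA had 16 factor-free of 25 shared regions and CEBPB 19 of 26, none of them inside these short genes. Among 15 AhR target genes, 10 had any shared region, against 12826 of all 19974 genes. A factor-free region was found at 8 (53.3%), close to the background of 54.1% of all genes. Of their 91 regions 52 were factor-free (57.1%). SLC7A5, a large neutral amino acid transporter gene, gave 32 of these 52. NFE2L2, which encodes NRF2, had 9 of 11, and IL1B 4 of 7.

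Liver gene lists had factor-free regions in most members. For each list the count of genes with a factor-free region stands beside 54.1% of all genes, and the share of its regions beside 53.8% of all assigned regions. The 54.1% includes 7148 genes without any shared region. Of the 12826 genes with a shared region, 10809 had a factor-free one. On that basis the counts were 18 of 19 liver transcription factor genes, 14 of 16 secreted protein genes and 15 of 16 fetal liver and hepatoma genes. No test was made, and the part of gene length in these counts was not tested. Of 20 liver transcription factor genes, 18 had a factor-free region, and 162 of 287 regions were factor-free (56.4%). The retinoid partner receptor gene RXRA had 27 of 40. FOXA1 had 10 of 11 and ONECUT2 0 of 7, both named after their values were seen. Of 22 genes of hepatocyte secreted proteins 14 had one, with 137 of 245 regions (55.9%). APOB led, TF (transferrin) had 26 of 42, SERPINA1 19 of 32 and ALB 14 of 39. Of 16 fetal liver and hepatoma genes 15 had one, with 91 of 198 regions (46.0%), among them 15 of 29 at GPC3 (glypican 3), 11 of 22 at AFP (α-fetoprotein) and 9 of 21 at the RNA-binding protein gene IGF2BP1.

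Metabolic lists lay on both sides of the share of all regions. In lipogenesis and sterol synthesis, 19 of 20 genes had a factor-free region and 130 of 222 regions were factor-free (58.6%). FASN had 16 of 18, MLXIPL, which encodes the glucose-responsive factor ChREBP, 15 of 29, and the glycerol-3-phosphate acyltransferase gene GPAM 14 of 23. In fatty acid oxidation and PPARA genes, 15 of 20 had one and 59 of 131 regions were factor-free (45.0%). There the lipid droplet gene PLIN2 had 12 of 21, and the carnitine palmitoyltransferase genes CPT1A and CPT2 had 6 of 11 and 6 of 10. In riboflavin handling, 5 of 9 genes had one, with 20 of 42 regions (47.6%). The riboflavin transporter gene SLC52A3 had 4 factor-free regions and no other. Only 1 of them lay inside the gene body (chr20:760080-780033), and the rest lay more than 10 kb outside it. All 4 lay 73704 bp or more from an AhR peak, but chr20:739145-739375 lay 40 bp from a C/EBPα peak. The phosphodiesterase genes ENPP1 and ENPP3 had 9 of 21 and 3 of 11. Respiratory chain subunits had few regions at all, with 6 of 19 genes and 13 of 24 regions (54.2%), of which COX4I1 gave 5 of 9.

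Growth, signalling and structural lists spanned the widest range. YAP and TEAD targets had the lowest share of the 19 lists when assigned within 50 kb (44.4% and not the lowest within 10 kb), with 118 of 268 regions (44.0%) and 16 of 18 genes. TEAD1 had 19 of 40, CRIM1 15 of 29 and ARHGEF17 13 of 20. Cell cycle and replication genes had 50 of 109 regions (45.9%) and 13 of 22 genes, with 12 of 16 at the cyclin gene CCNE1, 8 of 19 at CDKN1A (p21) and 6 of 24 at CDK6. Chromatin regulators had the highest share within 50 kb (59.4% and not the highest within 10 kb), with 121 of 198 regions (61.1%) and 18 of 21 genes, with 30 of 43 at the histone deacetylase gene HDAC4 and 22 of 35 at ARID1B. Proteasome subunits had 56 of 93 regions (60.2%) and 12 of 20 genes, of which PSMA6 gave 20 of 30, and ribosomal proteins had 33 of 55 (60.0%) and 9 of 20 genes, of which RPL3 gave 10 of 19.

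Immediate early and AP-1 genes had 109 of 186 regions (58.6%) and 16 of 20 genes, with 19 of 21 at FOSL2, 13 of 30 at the phosphatase gene DUSP1 and 12 of 23 at JUN. TGF-β and matrix genes had 125 of 237 regions (52.7%) and 16 of 20 genes, with 31 of 41 at FN1 and 23 of 33 at the inhibitory SMAD gene SMAD7. Cytoskeleton and adhesion genes had 151 of 302 regions (50.0%) and 20 of 20 genes, with 26 of 44 at the myosin gene MYH9 and 16 of 31 at ACTN1. Within a list, single genes differed more than the lists did, since FOSL2 and DUSP1 stand in the same list with 90.5% and 43.3%.

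Most markers of the labelled cell type had a shared region, and so did most markers of other cell types. Of all 19974 protein-coding genes, 12826 had one. Of 10 hepatocyte markers, 8 had a shared region, with 112 factor-free of 196 regions, and APOA1 and APOA2 had none. All 4 hepatoma and fetal liver markers had one, with 34 factor-free of 67, and PEG10 had 0 of 5. Neuron markers had regions at 4 of 4 genes (17 factor-free of 34), endothelial markers at 3 of 4 (36 of 63), fibroblast and stellate markers at 3 of 4 (10 of 22), T cell markers at 4 of 4 (4 of 8) and macrophage markers at 3 of 4 (1 of 4). In the longer lists, neuron genes had 33 of 57 (57.9%) with 10 of 15 genes, leukocyte genes 13 of 23 (56.5%) with 8 of 15, and endothelial and stellate genes 62 of 120 (51.7%) with 8 of 15. KDR, DCN and CD68 had no shared region. An assigned region lies within 50 kb of a gene and does not show that the gene is expressed, so the marker lists do not separate cell types by these positions.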

How the data were processed

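The deposited peak lists hold a name, chromosome, start, end and strand sign for each region. The lists the authors deposited hold positions and no value per library, so the depth per sample is unknown. Reads were handled with Bowtie2 and HOMER (versions not stated) on hg38 and mm10, per the submitters' processing notes. The sources used here do not state caller settings or merging steps. Mouse lists were not used.

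Overlap meant at least 1 shared base. Genes were 19974 protein-coding genes of RefSeq GRCh38.p14, the assembly behind hg38. Factor-free and factor-bearing regions were compared for 5 properties within 5 classes of width, with the difference on each chromosome (1 to 22 and X; without chromosome 8 for start windows, which cover 15813 genes) as the unit of a two-sided paired permutation test by sign flips (100000 resamples, smallest p 2e-05), adjusted by Benjamini-Hochberg over 5 tests. These p-values measure the spread between chromosomes, not between cultures. The routine was tested on simulated data. A planned motif test over regions needed a genome and was not run. The members and the 19 gene lists (347 of 348 symbols found) were chosen with earlier results of these data known. Named genes were the 10 with most factor-free regions, the 10 with most among wholly factor-free genes, AHR, AHRR, CYP1A1, CYP1B1, TIPARP, CEBPA, CEBPB, ALB, AFP and the 3 leading genes of each list, a few of which are not reported here. Alternatives were nearness to a factor within 500 bp, overlap in place of identity, merged regions only, no width classes, regions beyond 3 kb of gene ends, other distances and each chromosome left out. The software was Matplotlib 3.10.9, SciPy 1.17.1, pandas 2.3.3, NumPy 2.4.6 and Python 3.11.15.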

Additional observations from a re-analysis of the deposited data

How the results depend on the processing

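Of 35 alternatives to the 5 tested differences, 34 kept the direction and the side of the threshold. This count includes, for each of the 5 differences, overlap in place of identity. That alternative held the same 93202 regions and could not differ. The exception was the spacing difference, which reversed to 7.81 percentage points when a factor peak within 500 bp also counted. The cause was not tested. The factor-free share moved to 40.7% under that same change and to 47.2% among merged regions only, and lay between 52.5% without chromosome 20 and 53.6% without chromosome 3 when each chromosome was left out. Requiring overlap in place of identical coordinates changed nothing, since no region of one H3K27ac list alone overlapped the other list and all 93202 shared regions had the same merge number in both. The 2 lists are therefore not independent sightings of a region. With genes assigned within 10 kb, 9622 had a factor-free region. Among the lists, the count was then 6 for AhR targets (8 within 50 kb), 12 for fetal liver and hepatoma genes (15) and 11 for cell cycle genes (13). The lowest and highest factor-free shares of regions were then 37.5% in riboflavin handling and 67.4% in immediate early and AP-1 genes, so the order of the lists depends on the distance of assignment. No paired analysis was possible because the lists carry no replicate columns. The motif test over regions and its alternatives were not run. The lists hold no depth, so regions under the caller's threshold cannot be counted.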

Other observations

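Few hairpins of microRNAs were met by a shared region. Of 1562 hairpins in the RefSeq table, 1 was met by a factor-free region and 0 by a factor-bearing region, against 20 by an AhR peak and 27 by a C/EBPα peak. Within 3 kb, 42 hairpins had a factor-free and 19 a factor-bearing region, against 257 with an AhR peak and 299 with a C/EBPα peak. The shortage did not extend beyond 3 kb. The nearest factor-free region lay at 3 to 6 kb for 226 hairpins and the nearest factor-bearing region for 165. For AhR and C/EBPα peaks these counts were 165 and 157. The H3K27ac lists also changed in a step at 3 kb from gene starts, and its part in the hairpin counts was not tested.

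A small set of factor-free regions lay far from any factor peak and in gene-poor sequence. The farthest were chr14:16095879-16096079, with its nearest C/EBPα peak 3779187 bp away, and chr1:125183673-125183908, at 3590765 bp. On chromosome 16, 2 stretches without an assigned gene, chr16:34572971-34595572 with 16 regions and chr16:46380713-46401717 with 13, had median widths of 206 and 205 bp, near the narrowest width of 201 bp in the lists. Mappability and repeats were not analysed here.

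Regions listed in 1 experiment alone were factor-free more often than the shared ones. The share was 84.7% of 3943 regions in the inhibitor list alone (95% Wilson interval 83.6 to 85.8) and 70.4% of 13464 in the untreated list alone (69.6 to 71.1), against 53.2% of the shared regions (52.9 to 53.5). The intervals cover counting error over regions only. Those regions were also narrower, with median widths of 270 and 262 bp, against 288 bp. In 487 bins of 5 Mb with at least 50 shared regions, the factor-free share went with the number of shared regions less closely than across chromosomes (r = 0.55, rho = 0.533), as a description over neighbouring bins. Factor-free regions are part of both measures there too.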
